A study of Homo sapiens with 26 samples.

Results

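The tight junction genes CLDN1, CLDN4, CLDN7, CLDN12, OCLN, TJP1, F11R, MARVELD2 and CGN were examined by mRNA-seq in KYSE180, TE6 and KYSE150, 3 established human lines of squamous cell carcinoma of the esophagus (ESCC). They were taken by symbol and are 9 of the 26485 gene symbols in each of 5 tables, and all 9 were found in every table. The study altered BRDT, a bromodomain gene normally active in male germ cells, or TP63, which encodes the squamous transcription factor p63. KYSE180 cells received a control siRNA (siCont, n = 3) or an siRNA against BRDT (siBRDT, n = 3), and in a separate experiment siCont (n = 2) or an siRNA against TP63 (siTP63, n = 2). TE6 cells received siCont, siBRDT or siTP63 (n = 2 each), and the same siCont libraries served both TE6 comparisons. KYSE150 cells received siCont or siTP63 (n = 2 each). RNA was taken 48 h after siRNA transfection. In the remaining experiment KYSE150 cells carried a BRDT expression plasmid (BRDT-OE, n = 3) or served as its control (n = 3). Per the study's methods these cells were electroporated, and no time is given for them. All groups are thus of transfected cultures of 1 line each, without a normal epithelium. The labels do not say which of the study's siRNAs was used or whether replicates were separate cultures, so the p-values measure the spread between these libraries, which may be technical.

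Tight junctions seal the space between neighbouring epithelial cells near their apical border and limit what passes between them. Claudins form the sealing strands, occludin and tricellulin are related membrane proteins of the strands and of the corners where cells meet, and junctional adhesion molecules lie beside them. On the cytoplasmic side zonula occludens proteins and cingulin tie these membrane proteins to the actin cytoskeleton. In stratified squamous epithelium, such as that of the esophagus, functional tight junctions are restricted to upper layers, whereas several claudins are also made below them.

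The 26 libraries held 7.58 to 19.4 M reads, and the 10 most abundant genes took 2.98% to 6.82% of them. Values are read counts of a gene after division by the size factor of its library ("normalised values"), obtained separately in each table, so that levels in different tables are not on 1 scale and tests were made within a table. The targeted genes moved as labelled. BRDT fell under siBRDT by 2.75 on the log2 scale in KYSE180 and by 2.23 in TE6, and rose by 10.60 in BRDT-OE. TP63 fell under siTP63 by 1.70 in KYSE180, 4.45 in TE6 and 2.34 in KYSE150 (adjusted p = 0.082 in the latter), and under siBRDT by 0.58 in KYSE180 and 1.15 in TE6. Of 7 squamous markers, TP63 included, 5 to 7 were called down in each of the 4 knockdowns of KYSE180 and TE6, and the general epithelial markers CDH1, EPCAM, KRT8 and KRT18 were detected. Of the markers of other cell types, PTPRC (leukocytes), PECAM1 (endothelium) and DCN (fibroblasts) were at 0 to 8 reads per library. All 9 markers of leukocytes, endothelium and fibroblasts together took 35.2 to 139 RPM (reads of a gene per M reads of the library, group means), and CD68, COL1A1 and VWF had reads in every library. Of the 6 of these markers tested in each of the 4 knockdowns of KYSE180 and TE6, 2 were called up in each. Called down was 1 in each, but 2 for siTP63 in KYSE180. Of all genes 14.5% to 23.6% were called up and 15.8% to 25.7% down. CD68 was called down in all 4 (-0.80 to -2.26) and VWF up under siTP63 in KYSE180 (2.29) and TE6 (0.85). The remaining calls are not named, and the part of such cells in the results was not tested. In such bulk RNA fewer cells of a type and less RNA per cell cannot be told apart. The 4 KYSE150 libraries of the TP63 experiment stood apart, since siCont replicate 1 deviated from its group in the same way as siTP63 replicate 2 (correlation of deviations between same-numbered libraries -0.70 across genes).

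The 9 genes lie on 6 chromosomes (hg38, GENCODE release 44). CLDN1 (chromosome 3, 190305707 to 190322446, minus strand) lies 408431 bases from TP63 itself and 95 bases from CLDN16. CLDN4 (chromosome 7, 73799542 to 73832690) and CLDN12 (chromosome 7, 90383721 to 90513402) are on the plus strand, and CLDN12 overlaps GTPBP10 and CDK14 on the same strand. CLDN7 (chromosome 17, 7259903 to 7263983, minus strand) overlaps ELP5 on the opposite strand. MARVELD2 (chromosome 5, 69415065 to 69444330) and OCLN (chromosome 5, 69492292 to 69558104) are plus-strand neighbours 47962 bases apart. F11R (chromosome 1, 160995211 to 161021343, minus strand), CGN (chromosome 1, 151510510 to 151538692, plus strand) and TJP1 (chromosome 15, 29699367 to 29968915, minus strand) complete the list. How the study counted reads of overlapping genes is not stated, and the libraries do not keep strand. CLDN7, CLDN12 and F11R values can thus include or lack reads of protein-coding genes that overlap them. For CLDN7 and F11R these include ENSG00000262302 and ENSG00000270149, each on the same strand. Pseudogenes by name are OCLNP1 for OCLN and CLDN7P1 for CLDN7.

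Promoter sequence is shown for both plaque proteins, CGN and TJP1, whose transcripts moved together under siTP63 in KYSE180 and apart under siTP63 in TE6. RefSeq entries (GRCh38.p14) were found for 8 of the 9 members, F11R excepted, with 13 windows of 250 bases before a transcript start. Of these, 4 overlapped no annotated exon, among them the CGN window at chr1:151511137-151511386 (plus strand, within the gene's annotated span) and the first TJP1 window at chr15:29969050-29969299 (minus strand, before the gene). Capitals mark matches to AACCNGTT, the sequence bound by grainyhead-like factors, or to CACCTG, an E-box of the kind bound by SNAI and ZEB factors. Both are read 5′ to 3′ on the gene's strand.

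CGN: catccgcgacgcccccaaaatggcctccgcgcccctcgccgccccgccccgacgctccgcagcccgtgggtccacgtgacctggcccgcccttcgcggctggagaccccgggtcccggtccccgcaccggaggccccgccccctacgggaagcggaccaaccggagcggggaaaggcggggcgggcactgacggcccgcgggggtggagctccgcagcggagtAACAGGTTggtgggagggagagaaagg
TJP1: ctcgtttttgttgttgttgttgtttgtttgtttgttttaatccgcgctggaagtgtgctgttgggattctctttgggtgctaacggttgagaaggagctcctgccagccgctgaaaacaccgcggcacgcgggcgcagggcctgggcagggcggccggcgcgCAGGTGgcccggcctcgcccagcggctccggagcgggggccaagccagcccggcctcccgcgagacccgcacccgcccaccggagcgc

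The CGN window held 1 match to AACCNGTT on its other strand, starting 27 bases before the transcript start, and none to CACCTG. The TJP1 window held 1 match to CACCTG on its other strand, starting 88 bases before the transcript start, and none to AACCNGTT. Both strands were searched, and a window was counted once however many matches it held. AACCNGTT was found in 1.49% of 35116 promoter windows of this length and in 1 of the 13 member windows, and CACCTG in 17.5% and in 4 of 13, which belong to CLDN7, OCLN and TJP1. CAGCTG, another E-box, and the paired p53-family core (CATG, any 6 bases, CATG) were found in 14% and 0.296% of all windows and in 0 of the 13. A match describes these letters only.

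Levels of the members were compared within each control group as reads per kilobase of the longest transcript and per M reads of the library (RPKM). CLDN7, F11R and CLDN4, a sealing claudin, the junctional adhesion molecule JAM-A and a claudin of many simple epithelia, were the 3 most abundant in all 5 control groups. In KYSE180 siCont of the BRDT experiment F11R came first at 131 ± 1.99 RPKM (SD, n = 3), followed by CLDN7 at 80.5 ± 6.67 and CLDN4 at 29.2 ± 1.06. In KYSE180 siCont of the TP63 experiment the order was CLDN7 (114 ± 4.82, SD, n = 2), F11R (60.3 ± 5.53) and CLDN4 (45.3 ± 3.03). TE6 siCont had the same order, with CLDN7 at 93.7 ± 5.48, F11R at 59.1 ± 0.0502 and CLDN4 at 43.2 ± 1.38 RPKM (SD, n = 2). In KYSE150 CLDN4 was first, at 111 ± 15.2 RPKM with siCont (SD, n = 2) and 199 ± 11.1 in the overexpression controls (SD, n = 3), ahead of CLDN7 (46.4 ± 4.27 and 60.3 ± 9.09) and F11R (33.9 ± 4.01 and 44.8 ± 0.823). None of these neighbours in order overlapped between libraries of a group.

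The middle of the order was held by TJP1, which encodes ZO-1, CGN, which encodes cingulin, and CLDN12, and its lower end by OCLN (occludin), MARVELD2 (tricellulin) and CLDN1. TJP1 and CLDN12 overlapped in every control group of KYSE180 and KYSE150, at 14.6 and 13.3 RPKM in KYSE180 siCont of the BRDT experiment and at 3.20 and 2.45 in that of the TP63 experiment. MARVELD2 and OCLN overlapped in TE6 (1.92 and 1.83 RPKM) and in both KYSE150 control groups (0.962 and 0.790 with siCont). Absence marked CLDN1 in KYSE150. Its siCont libraries held 0 and 1 reads and its siTP63 libraries 0 and 0, while the overexpression controls held 1, 5 and 3 and BRDT-OE 3, 4 and 1. CLDN1 was at 4.22 ± 0.882 RPKM in KYSE180 siCont of the BRDT experiment (SD, n = 3) and at 3.23 ± 0.681 in TE6 siCont (SD, n = 2). A count of 0 allows up to 3 reads by counting error alone. The 2 KYSE180 control groups were of the same line and siRNA but differed in level, since CLDN1 was at 0.583 ± 0.116 RPKM in the TP63 experiment (SD, n = 2), OCLN at 0.378 against 1.93 and TJP1 at 3.20 against 14.6. Levels given for a line thus hold for the experiment named.

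**Figure D1:**
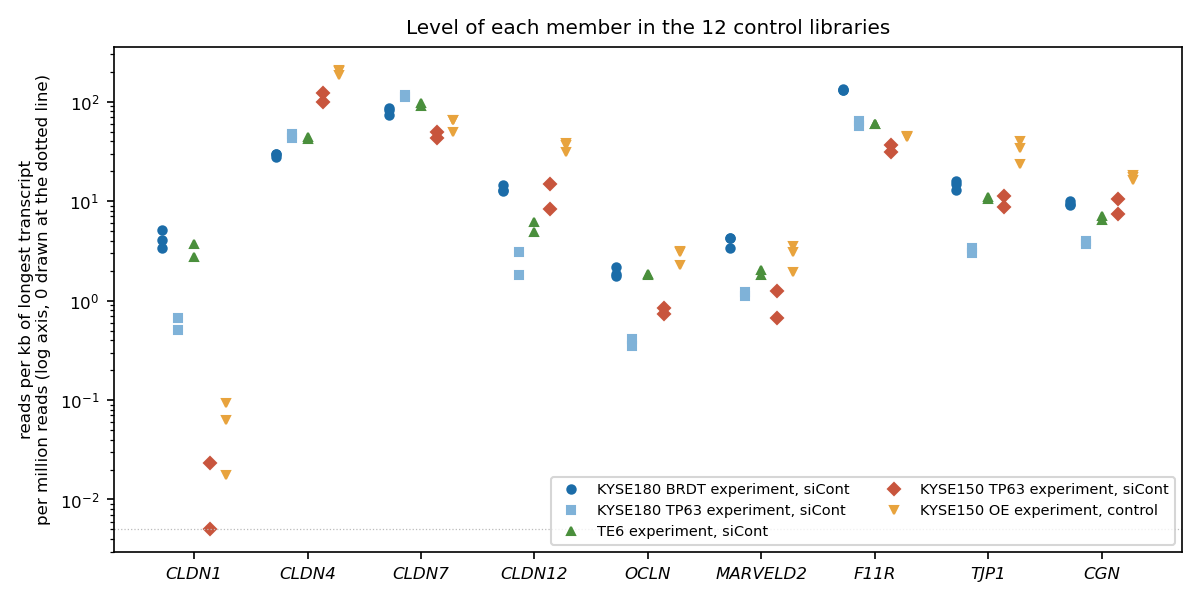
RPKM (log axis) of the 9 genes in the 12 control libraries, 1 point per library, coloured by experiment, with 0 drawn at the dotted line. CLDN1 lies at or under 0.0926 in all 5 KYSE150 control libraries and at or above 0.501 in all others, and CLDN4 is higher in KYSE150 than in KYSE180 or TE6.

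**Figure D2:**
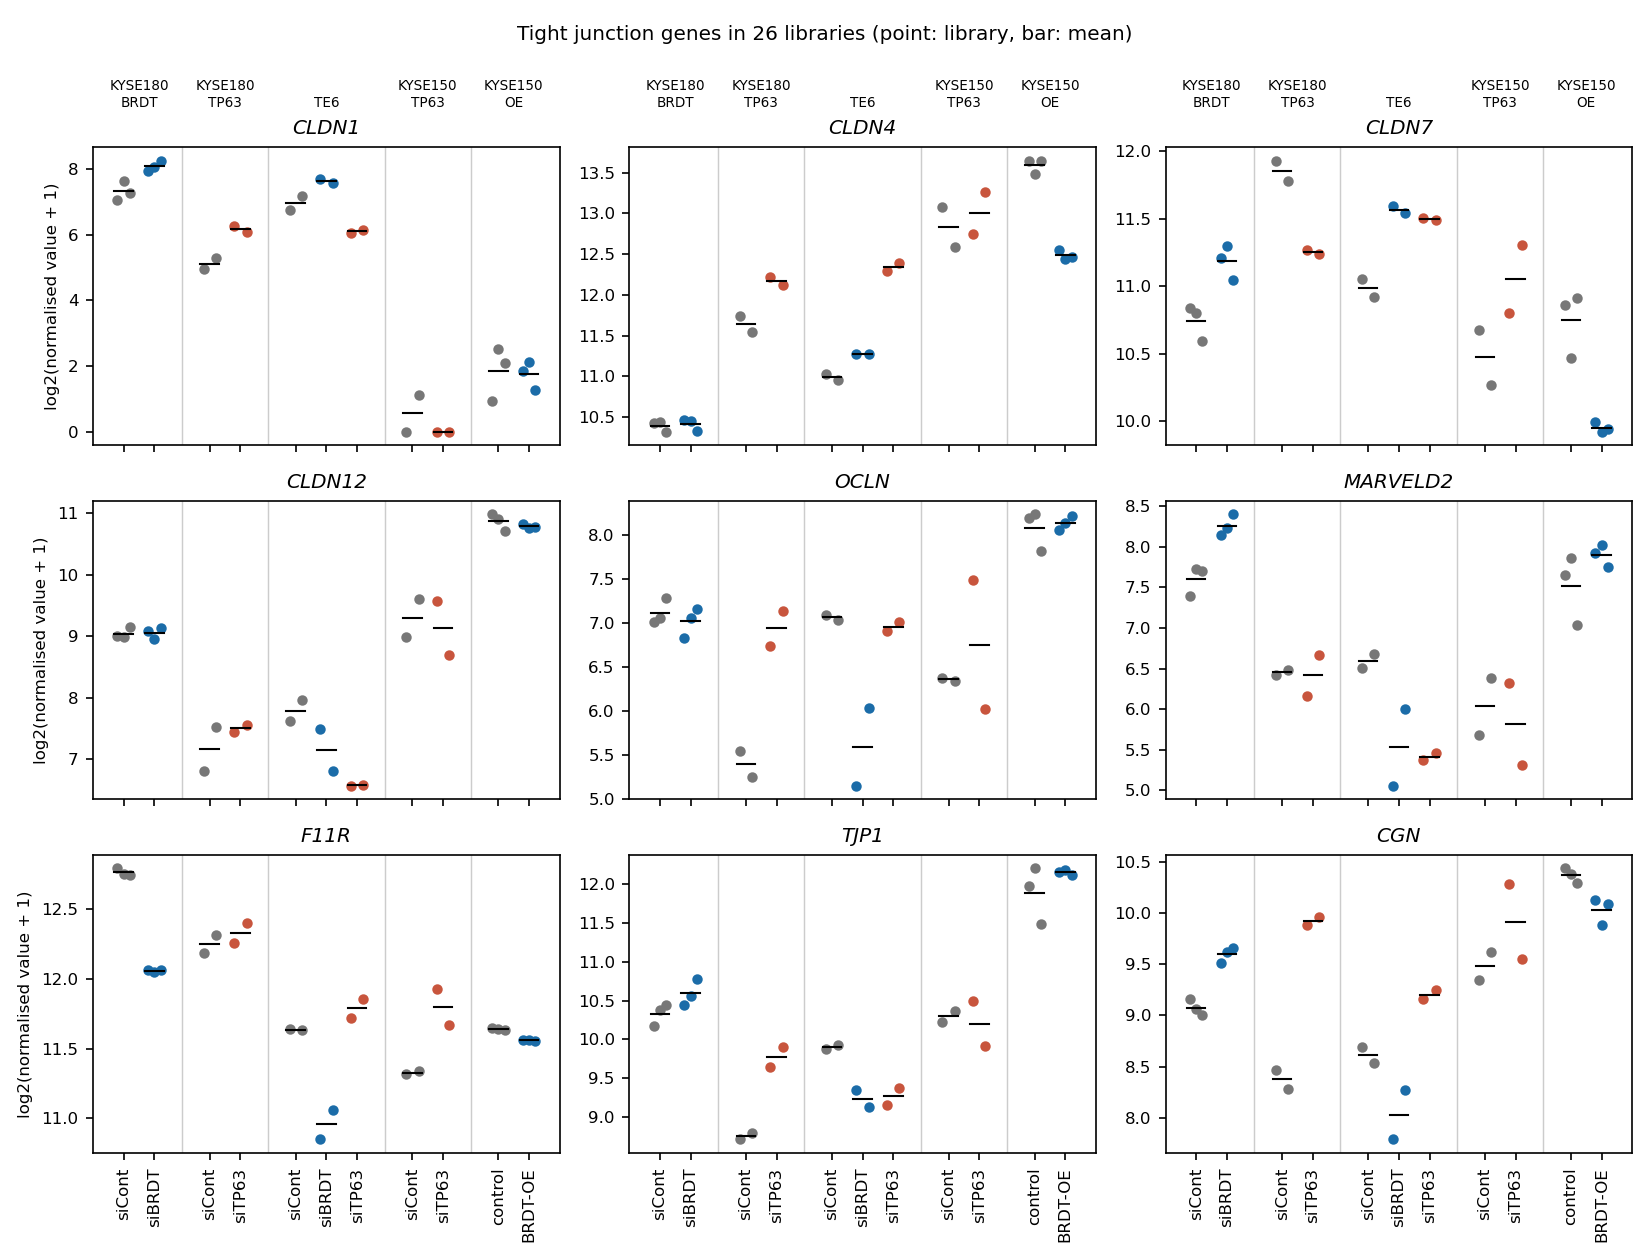
Normalised value of each gene on the log2(value + 1) scale in all 26 libraries, 1 point per library with the group mean as a bar, control groups in grey, siBRDT and BRDT-OE in blue and siTP63 in red. Each panel has its own scale, vertical lines separate tables, and levels in different tables are not comparable in normalised values. CGN rises under siTP63 in KYSE180 and TE6, and CLDN4 falls in BRDT-OE.

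To ask how loss of BRDT bears on tight junction genes, siBRDT was compared with siCont in KYSE180. CLDN1, MARVELD2 and CGN rose and F11R fell, each by 1.44 to 1.69 times. CLDN7 and TJP1 also lay above siCont, by less than the limit of 0.5 on the log2 scale that a call required beside an adjusted p under 0.05. CLDN4, CLDN12 and OCLN lay close to their control levels. Thus 3 of 9 members were called up and 1 down, where 14.5% and 15.8% of all 13589 genes tested were called up and down (30.3% in all, 52.1% of the calls down, or 40.3% with libraries rescaled to equal totals).

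Among the claudins, the normalised CLDN1 values were 131, 199 and 155 with siCont and 245, 264 and 306 with siBRDT. All siBRDT libraries were above all siCont libraries, and the log2 fold change was 0.76 ± 0.14 (SE, adjusted p = 2.4e-04). CLDN7 values were 1835, 1781 and 1544 with siCont and 2363, 2524 and 2111 with siBRDT. These groups did not overlap either, and the change of 0.44 ± 0.08 passed the p threshold (adjusted p = 2.5e-04) but not the fold limit. It was 0.53 and called when libraries were rescaled to equal totals. CLDN4 (1372, 1393 and 1279.8 against 1409, 1403 and 1288) overlapped between groups, with a change of 0.02 ± 0.07 and a 95% interval from -0.12 to 0.16. CLDN12 changed by 0.02 ± 0.08 (interval -0.15 to 0.19), its groups overlapping too.

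MARVELD2, the tricellulin gene, was at 167, 210.2 and 207 with siCont and at 281, 299 and 336 with siBRDT. It rose by 0.65 ± 0.11 (SE, adjusted p = 1.4e-04) without overlap. Its neighbour OCLN was at 127, 132 and 154 with siCont and 113, 132 and 142 with siBRDT, overlapping throughout, a change of -0.10 ± 0.13 (adjusted p = 0.54). F11R, which encodes JAM-A, was the member that fell. Its values were 7087, 6902 and 6855 with siCont and 4284, 4228 and 4268 with siBRDT, a 1.63-fold lower mean and a change of -0.71 ± 0.06 (adjusted p = 7.7e-08). Replicates of either group spanned far less than the gap between groups.

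The cytoplasmic plaque gene CGN was at 571, 534 and 513 with siCont and 730.2, 787 and 807 with siBRDT and rose by 0.52 ± 0.07 (SE, adjusted p = 2.7e-05). The call rested close to the fold limit, since the change was 0.49 without siCont replicate 3 and 0.49 without siBRDT replicate 3. TJP1 went from 1149, 1334 and 1387 to 1393, 1513 and 1758, a change of 0.27 ± 0.09 (adjusted p = 0.018), under the fold limit. Without overlap between groups were 5 members that were higher and 1 that was lower, against 31% and 31.8% of all genes (62.8% in all). Of 44 other tight junction genes tested, 8 were called up and 9 down. PARD6A, a polarity adaptor, rose by 1.72 (49.0 to 162, adjusted p = 1.9e-06), and CLDND1 (-1.52), CLDN10 (-1.19) and AMOT (-1.14) fell. Among regulators of such genes GRHL3 (1.57), OVOL2 (0.75), ELF3 (0.64) and SNAI1 (0.97) were called up and SNAI2 (-0.67) and TWIST1 (-1.84) down, of 11 tested.

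In TE6, the other line in which BRDT was knocked down, siBRDT lowered 6 members and raised 2. OCLN fell most, followed by MARVELD2, F11R, TJP1, CLDN12 and CGN, while CLDN1 and CLDN7 rose. CLDN4 was higher by less than the fold limit. Of all 13333 genes 18.1% were called down and 15.6% up (33.7% in all, 53.8% of the calls down, or 66.5% rescaled to equal totals and 41.4% to equal upper quartiles). With upper quartiles 4 members were called down and 2 up. All 9 members had groups that did not overlap, as did 71.9% of all genes, with 3 members higher (34.5% of all genes) and 6 lower (37.3%).

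OCLN, the occludin gene, was at 135 and 130.1 with siCont and 34.5 and 64.5 with siBRDT, the latter from 32 and 54 reads. On the log2(value + 1) scale of the fit it was 2.77 times lower, a log2 fold change of -1.47 ± 0.25 (SE, adjusted p = 5.3e-04). MARVELD2 was at 89.7 and 102 with siCont and 32.4 and 63.3 with siBRDT (30 and 53 reads with siBRDT), a change of -1.06 ± 0.29 (adjusted p = 0.0098). Replicate 1 of siBRDT was lower than replicate 2 in both genes, by 1.87 times in OCLN and 1.96 times in MARVELD2. F11R went from 3188 and 3172 to 1843 and 2138, a change of -0.68 ± 0.10 (adjusted p = 2.1e-04).

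The plaque genes fell as well. TJP1 was at 935 and 976 with siCont and 649.5 and 557 with siBRDT (-0.67 ± 0.12, SE, adjusted p = 8.5e-04). CGN was at 412 and 369.5 with siCont and 220.1 and 307 with siBRDT (-0.58 ± 0.16, adjusted p = 0.0088). Both groups of siBRDT values were clear of their controls.

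The claudins were split. CLDN1 rose from 107 and 144 to 205 and 189 (0.66 ± 0.19, SE, adjusted p = 0.012) and CLDN7 from 2123 and 1942 to 3097 and 2980.4 (0.58 ± 0.09, adjusted p = 3.4e-04). CLDN4 was at 2083 and 1978 with siCont and 2469.7 and 2486 with siBRDT, a change of 0.29 ± 0.09 (adjusted p = 0.022) under the fold limit. CLDN12 fell from 196 and 248 to 179 and 111 (-0.64 ± 0.22, adjusted p = 0.029), its siBRDT libraries differing by 1.61 times. This CLDN12 call held in 6 of 14 alternatives. Transcript length and GC content moved with these changes across all genes, from a median of 0.35 in the shortest of 4 equal classes of transcripts to -0.35 in the longest, and from -0.32 in the class with the least GC to 0.25 in that with the most. By the longest transcript of each gene, CLDN7 is the shortest of the members (1923 bases, 59.6% GC) and TJP1 the longest (7950 bases, 44.8% GC). Once the trend on both was removed, OCLN, MARVELD2, F11R, CGN and CLDN1 were still called, whereas CLDN7 was at 0.14 (adjusted p = 0.15), CLDN12 at -0.42 (adjusted p = 0.095) and TJP1 at -0.34 (adjusted p = 0.025, under the fold limit). Without siCont replicate 1 only 4 members were called, OCLN, TJP1, F11R and CLDN7. CLDN12 and MARVELD2 were not called without siCont replicate 2, MARVELD2 (-0.58) and CGN (-0.35) without siBRDT replicate 1, and CLDN12 (-0.30) without siBRDT replicate 2.

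Of 40 other tight junction genes tested here 3 were called up and 8 down. The largest changes by the rule were falls of MPDZ (-1.25, 271 to 114, adjusted p = 1.0e-04) and MAGI3 (-1.08, adjusted p = 6.5e-04), which encode scaffolds, CLDND1 (-0.85) and MLLT4 (-0.77), which encodes afadin. Of 18 other scaffolds and adaptors 0 were called up and 5 down by limma, against 15.6% and 18.1% of all genes. An unadjusted p below 0.05 was found for 9 of them. The share of all genes at that threshold is not given, so this count cannot be read as a trait of the list. The length and GC trend was not removed for this list. GRHL1 (-0.65), GRHL2 (-0.65, 973 to 627) and GRHL3 (-0.74) were called down, and KLF4 (1.48), OVOL1 (0.81) and OVOL2 (0.54) up.

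To ask which members depend on p63, siTP63 was compared with siCont in KYSE180. CGN rose 2.92-fold, OCLN 2.91-fold, CLDN1 2.07-fold, TJP1 2.03-fold and CLDN4 1.45-fold, while CLDN7 fell. F11R, MARVELD2 and CLDN12 were not called. The counts of 5 up and 1 down of 9 compare with 23.6% and 25.7% of 13924 genes (49.3% in all, 52.1% of the calls down). Groups did not overlap for 5 members that were higher and 1 that was lower, against 39.8% and 40.4% of all genes (80.2% in all). The scaling moved these calls. The normalised values of a siCont library added up to 16.6 to 17.3 M and those of a siTP63 library to 11.5 to 12.1 M, and rescaling to equal totals raised the median of all genes by 0.53 and left 17.6% of calls down.

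CGN was at 352 and 311 with siCont and 943 and 998 with siTP63. It rose by 1.55 ± 0.15 (SE, adjusted p = 2.9e-09), a change that cannot be ranked against that of OCLN given below. TJP1, whose product ZO-1 binds cingulin, went from 418 and 443 to 796 and 957, a change of 1.02 ± 0.15 (adjusted p = 2.2e-06). OCLN was at 45.6 and 37.0 with siCont (29 and 36 reads) and 106 and 139 with siTP63, a change of 1.54 ± 0.24 (adjusted p = 5.2e-06). In these 3 genes each siTP63 library was above both siCont libraries by at least 1.80 times. MARVELD2, next to OCLN on the chromosome, was at 84.9 and 88.3 with siCont and 70.6 and 101 with siTP63, overlapping (-0.04 ± 0.23, interval -0.50 to 0.43). F11R was at 4659 and 5077 with siCont and 4879 and 5405 with siTP63 and overlapped too (0.08 ± 0.15, interval -0.23 to 0.38).

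Claudins differed among themselves. CLDN1 rose from 29.9 and 38.0 (19 and 37 reads) to 75.2 and 66.7, a change of 1.05 ± 0.26 (SE, adjusted p = 0.0014), and CLDN4 from 3418 and 2975 to 4764 and 4469.6, a change of 0.53 ± 0.15 (adjusted p = 0.0029). CLDN7 fell from 3909 and 3524 to 2465 and 2415, a change of -0.60 ± 0.14 (adjusted p = 7.3e-04), and ELP5, which overlaps it, fell by 0.96. ELP5 was called in no other comparison. It was at -0.17 for siBRDT in KYSE180 and at 0.43 and 0.13 for siBRDT and siTP63 in TE6. In KYSE150 it was at -0.22 for siTP63 and 0.11 in BRDT-OE. CLDN12 was at 112 and 183 with siCont and 173 and 188 with siTP63 (0.33 ± 0.20, adjusted p = 0.17), and its siCont libraries differed by 1.64 times. Rescaled to equal totals, 7 members were called up, CLDN12 (0.85) and F11R (0.60) among them, MARVELD2 turned to 0.48 and CLDN7 was at -0.08 (adjusted p = 0.61). Relative to the median of all genes under that scaling CLDN7 was at -0.61 and MARVELD2 at -0.05.

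The shortest of 4 equal classes of transcripts had a median change of -0.47 and the longest 0.29 in this comparison. Once length and GC trends were removed, CLDN7 was at -0.26 (adjusted p = 0.055) and CLDN4 at 0.48, while CGN, OCLN, TJP1 and CLDN1 kept their calls. CLDN4 was also under the fold limit without siCont replicate 2 (0.43) or siTP63 replicate 1 (0.49), and CLDN12 (0.69) was called without siCont replicate 2.

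Of 44 other tight junction genes tested in this comparison 16 were called up and 9 down, among them 8 up and 2 down of 18 scaffolds and adaptors and 2 up and 4 down of 8 other claudins. ILDR1, an angulin of tricellular contacts (47.3 to 284, 6.05-fold, adjusted p = 4.1e-10), TJP3, which encodes ZO-3 (190 to 1126, 2.56, adjusted p = 1.1e-12), and AMOT (1.66) rose, and CLDN11 fell (-1.55). GRHL1 (82.6 to 352, 2.09), GRHL2 (832 to 1608, 0.95), GRHL3 (0.97), ELF3 (1.22) and KLF4 (1.13) were called up and SNAI2 (-1.85) and TWIST1 (-0.61) down, of 11 regulators tested. The grainyhead-like genes rose here together with CGN, whose promoter window holds the AACCNGTT match printed above. Whether one bears on the other was not tested.

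siTP63 in TE6 moved the members in both directions. CLDN4, CLDN7 and CGN rose, and CLDN1, CLDN12, MARVELD2 and TJP1 fell. OCLN and F11R were not called. Called up were 3 and down 4 of 9, against 18.3% and 20.6% of 13333 genes (38.9% in all, 52.9% of the calls down). All 9 had groups without overlap, as did 80.5% of all genes, with 4 members higher (39.8% of all genes) and 5 lower (40.7%).

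CLDN4 changed most. It was at 2083 and 1978 with siCont and 5003 and 5373 with siTP63, 2.55 times higher, a log2 fold change of 1.35 ± 0.09 (SE, adjusted p = 3.1e-07). CLDN7 went from 2123 and 1942 to 2915 and 2882 (0.51 ± 0.09, adjusted p = 6.3e-04). CLDN1 fell from 107 and 144 to 65.7 and 69.5 (-0.87 ± 0.19, adjusted p = 0.002), although it rose under the other siRNA against the same controls. CLDN12 fell from 196 and 248 to 94.2 and 94.7 (-1.21 ± 0.22, adjusted p = 5.5e-04). CDK14 and GTPBP10, which overlap it, were at -1.12 and -0.40, the latter not called. Under siBRDT in TE6, where CLDN12 also fell, CDK14 was at 0.02 and GTPBP10 at 0.20, neither called.

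MARVELD2 fell from 89.7 and 102 to 40.5 and 42.9 (-1.18 ± 0.29, SE, adjusted p = 0.0046), whereas OCLN (135 and 130.1 against 119 and 127) changed by -0.11 ± 0.25 (interval -0.66 to 0.44). F11R was at 3188 and 3172 with siCont and 3375 and 3708 with siTP63, a change of 0.15 ± 0.10 (adjusted p = 0.23). Both plaque genes moved, in opposite directions. TJP1 went from 935 and 976 to 571 and 661 (-0.64 ± 0.12, adjusted p = 9.4e-04) and CGN from 412 and 369.5 to 569.9 and 605 (0.59 ± 0.16, adjusted p = 0.0074). Once length and GC trends were removed CLDN7 was at 0.17 (adjusted p = 0.079) and TJP1 at -0.41 (under the fold limit), and OCLN turned to 0.23, while across all genes the median went from 0.22 in the shortest class of transcripts to -0.26 in the longest. Without siCont replicate 2 only 3 members were called, CLDN4, CLDN12 and TJP1, and CGN was not called without siTP63 replicate 2 either.

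Of 40 other tight junction genes 9 were called up and 6 down under siTP63 in TE6. AMOT (1.59), TJP3 (128 to 370, 1.52, adjusted p = 1.3e-05), CRB3 (1.05) and PRKCZ (0.78), the latter 2 of the apical polarity complexes, rose. GRHL1 (0.52), GRHL3 (0.61), OVOL1 (0.79) and OVOL2 (1.21) were called up and SNAI2 (205 to 33.7, -2.57) and ZEB1 (-1.35, at a mean value of 6.51 with siCont) down.

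In KYSE150, siTP63 gave no call among the 8 members that could be tested, CLDN1 being too low. F11R and CLDN7 were higher in both siTP63 libraries than in both siCont libraries. No gene of 12335 was called by limma, at a share of 0%, while 2194 (17.8%), among them 0 members, had an unadjusted p below 0.05. edgeR called 0 genes and DESeq2 461. By limma 762 genes were called once length and GC trends were removed, 137 when replicate numbers entered as blocks and 242 to 307 with a library left out, in each case with 0 members. With the crossed pairing of libraries, chosen after seeing the data, 3400 genes and 1 member, CLDN7 (0.58, adjusted p = 1.2e-05), were called. Groups did not overlap for 48.9% of all genes, with siTP63 higher in 24.3% and lower in 24.6%.

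F11R was at 2545 and 2594 with siCont and 3899 and 3253 with siTP63 (0.47 ± 0.21, SE, interval -0.04 to 0.98, adjusted p = 0.31). CLDN7 was at 1632 and 1234 with siCont and 1784 and 2530.0 with siTP63 (0.58 ± 0.26, interval -0.07 to 1.23, adjusted p = 0.32). In the other members the spread within a group was as large as the difference. CLDN4 was at 8670.3 and 6149 with siCont and 6861 and 9798 with siTP63, OCLN at 81.7 and 80.1 with siCont and 178 and 63.9 with siTP63, and CGN at 650.4 and 787 with siCont and 1247 and 747 with siTP63. Log2 changes were 0.17 for CLDN4, 0.40 for OCLN, 0.43 for CGN, -0.17 for CLDN12, -0.09 for TJP1 and -0.22 for MARVELD2, with intervals reaching past 0.5 on at least 1 side for each of these. In each of CLDN12, TJP1, MARVELD2, OCLN and CGN siTP63 replicate 1 was above replicate 2, by up to 2.78 times (OCLN).

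Gain of BRDT in KYSE150 was examined last. CLDN4 and CLDN7 fell in BRDT-OE, by 2.16 and 1.73 times, and CGN was lower by less than the fold limit. The remaining 5 members tested were not called, and CLDN1 was at 1 to 5 reads in every library. Called were 0 up and 2 down of 8, against 10.5% and 16% of 12765 genes (26.5% in all, 60.3% of the calls down, or 77.2% with libraries rescaled to equal totals, which moved the median of all genes by -0.11). Both falls were called under every alternative tried.

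CLDN4 was at 12842, 11483 and 12797 in control libraries and 6001, 5550.4 and 5649.9 in BRDT-OE. The groups were far apart, with a 2.16 times lower mean and a log2 fold change of -1.11 ± 0.07 (SE, adjusted p = 4.1e-06). CLDN7 was at 1858, 1416 and 1924 in control libraries and 1020.5, 969 and 980.1 in BRDT-OE, a change of -0.79 ± 0.11 (adjusted p = 2.0e-04). CGN was at 1384, 1332 and 1255 in control libraries and 1119, 944 and 1084 in BRDT-OE, a change of -0.34 ± 0.08 (adjusted p = 0.0067). F11R varied little in either group (3199, 3195 and 3175 against 3019, 3025 and 3004). All BRDT-OE values of F11R were lower, at a log2 fold change of -0.08 (adjusted p = 0.29). Groups without overlap were thus 4 members, all lower, against 29.3% of all genes lower and 30.9% higher (60.2% in all). TJP1 was at 4021, 4710.4 and 2861 in control libraries and 4569, 4645 and 4452 in BRDT-OE (0.27 ± 0.15, adjusted p = 0.15). MARVELD2 was at 199.7, 231 and 130.4 in control libraries and 242, 259.6 and 214 in BRDT-OE (0.38 ± 0.19, adjusted p = 0.11), and without control replicate 2 its change of 0.56 was called. Control replicate 3 was the lowest of its group in both genes. OCLN changed by 0.05 (interval -0.22 to 0.33) and CLDN12 by -0.08 (interval -0.26 to 0.10).

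Of 36 other tight junction genes 2 were called up and 4 down in BRDT-OE. TJP3 fell from 462 to 78.2 (-2.54, adjusted p = 4.6e-06), PARD3B (-0.84) and LLGL2 (-0.54) fell and CXADR, an adhesion receptor of the junction, rose (0.56). ELF3 (1101 to 274, -2.04), KLF4 (-0.83) and OVOL1 (-0.57) were called down among 10 regulators tested, and none was called up by limma.

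**Figure D3:**
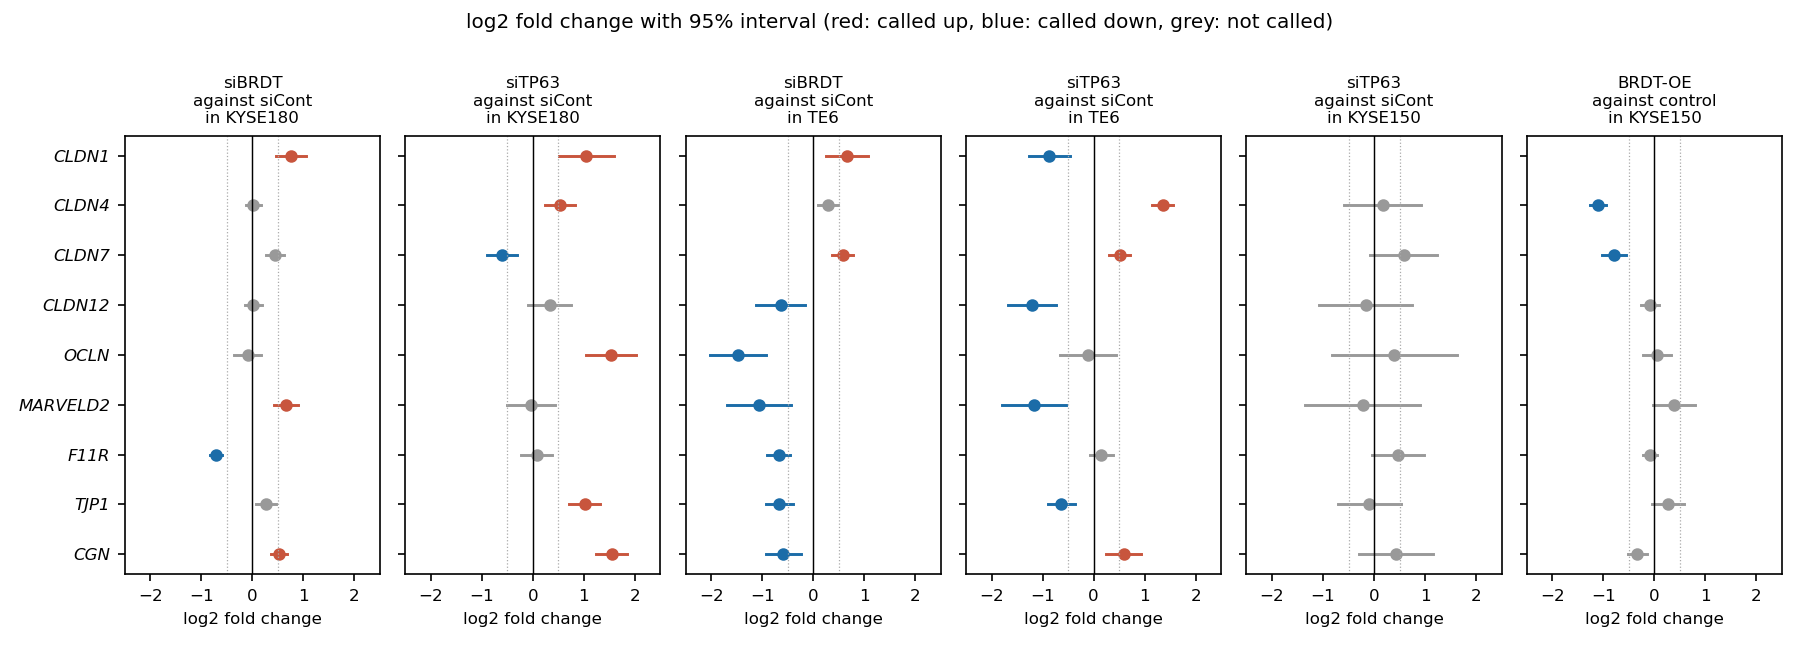
Log2 fold change (treated minus control, x axis) of each gene in the 6 comparisons with its 95% interval, red where called up, blue where called down and grey where not called, with dotted lines at the limit of 0.5. CLDN1 is absent from both KYSE150 panels, where it was too low to test, and the TE6 panels share their control libraries.

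The fold changes of a member were compared between lines by testing their difference. This is a test of size, which genes that moved the same way in both lines can pass too. For siBRDT, TE6 minus KYSE180, 5 of 9 members differed at an adjusted p under 0.05, where 41.9% of 12612 genes did. All 5 were lower in TE6, as were 53.7% of the genes that differed (41.5% with upper quartile and 73.4% with total rescaling, which moved the median by -0.25). MARVELD2, which rose in KYSE180 and fell in TE6, differed by -1.71 ± 0.29 (SE, adjusted p = 1.9e-04), CGN by -1.11 ± 0.17 (adjusted p = 6.7e-05) and OCLN by -1.38 ± 0.28 (adjusted p = 8.9e-04). TJP1 differed by -0.93 ± 0.16 (adjusted p = 1.6e-04) and CLDN12 by -0.66 ± 0.22 (adjusted p = 0.023). CLDN12 missed the threshold with upper quartile rescaling (-0.55, adjusted p = 0.060), where CLDN4 passed it (0.37, adjusted p = 0.011), so that 4 members were lower and 1 higher in TE6. CLDN12 also missed it without TE6 siCont replicate 2, TE6 siBRDT replicate 2 or KYSE180 siBRDT replicate 3. The F11R falls in both lines differed by 0.03, with an interval from -0.21 to 0.26, and the CLDN1 rises by -0.10 (-0.60 to 0.40).

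For siTP63, TE6 minus KYSE180, 8 of 9 members differed, where 55% of 12780 genes did (47.7% of them lower, or 76.0% with total rescaling). Lower in TE6 were CLDN1 by -1.92 ± 0.31 (SE, adjusted p = 4.2e-05), TJP1 by -1.65 ± 0.19 (adjusted p = 1.5e-06), OCLN by -1.65 ± 0.36 (adjusted p = 8.5e-04) and CLDN12 by -1.55 ± 0.33 (adjusted p = 7.0e-04). MARVELD2 (-1.14 ± 0.39, adjusted p = 0.019) and CGN (-0.96 ± 0.22, adjusted p = 0.001) were lower too, CGN having risen in both lines. Higher in TE6 were CLDN7 by 1.12 ± 0.15 (adjusted p = 9.3e-06) and CLDN4 by 0.82 ± 0.16 (adjusted p = 2.6e-04). F11R differed by 0.08 (interval -0.27 to 0.42). Rescaling to equal totals moved the median of all genes by -0.52, so that CLDN4 was at 0.29 (adjusted p = 0.086) and F11R turned to -0.46 (adjusted p = 0.020), while relative to that median they were at 0.81 and 0.06. MARVELD2 missed the threshold with the length and GC trend removed (-0.80) and without TE6 siCont replicate 2, TE6 siTP63 replicate 1 or KYSE180 siTP63 replicate 2. Against KYSE180 or TE6, 0 of 8 members differed in KYSE150 by limma (1.62% and 3.86% of all genes did). CLDN7, TJP1 and CGN were at an unadjusted p under 0.05 against KYSE180 and CLDN4 and CLDN12 against TE6. The share of all genes at an unadjusted p under 0.05 was not computed for these contrasts, so it cannot be set beside these members. Member counts for these contrasts were not computed with edgeR or DESeq2.

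**Figure D4:**
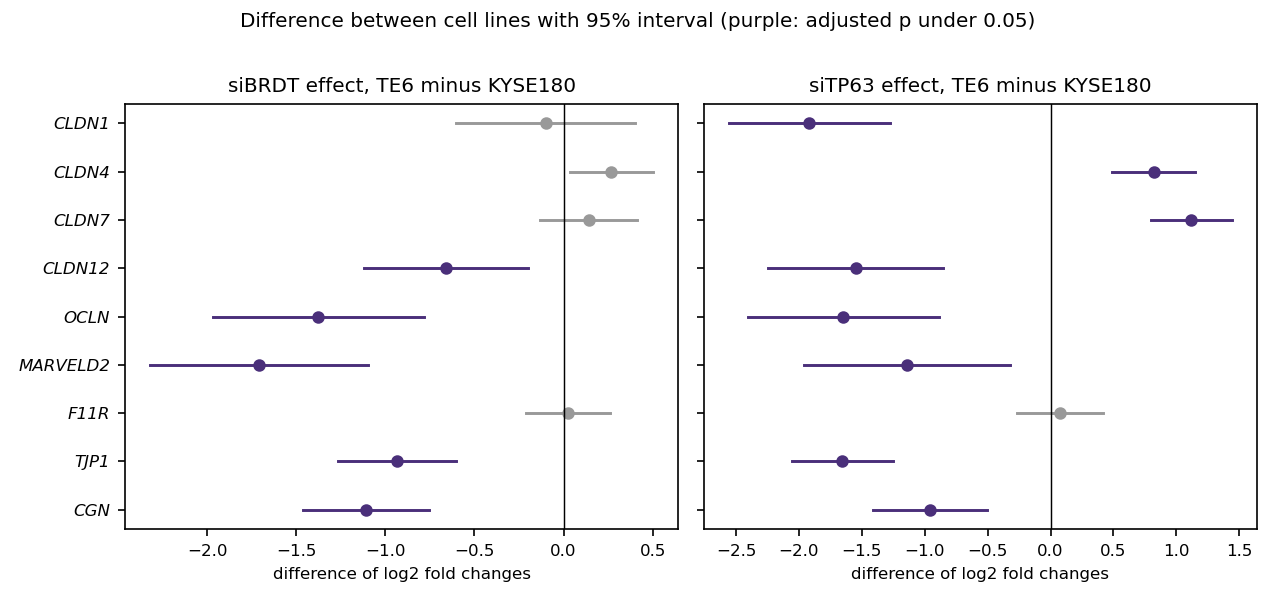
Difference of log2 fold changes between TE6 and KYSE180 (x axis) with its 95% interval, for siBRDT on the left and siTP63 on the right, purple where the adjusted p was under 0.05. Under siTP63 the claudin genes CLDN4 and CLDN7 lie to the right of 0 and 6 members to the left, and F11R lies at 0.03 and 0.08.

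Both knockdowns were then compared within a line. In KYSE180 the siTP63 change exceeded the siBRDT change for OCLN (1.64 ± 0.24, SE, adjusted p = 1.3e-05), CGN (1.03 ± 0.14, adjusted p = 4.1e-06), F11R (0.78 ± 0.12, adjusted p = 1.3e-05), TJP1 (0.75 ± 0.16, adjusted p = 5.3e-04) and CLDN4 (0.51 ± 0.12, adjusted p = 0.0016). It was below the siBRDT change for CLDN7 (-1.04 ± 0.14, adjusted p = 3.9e-06) and MARVELD2 (-0.69 ± 0.22, adjusted p = 0.012). These were 7 of 9, where 65.1% of 13311 genes differed (51.8% of them lower, or 30.2% with total rescaling, which moved the median by 0.42). MARVELD2 was at -0.43 without siTP63 replicate 1. Its difference ranged from -0.96 to -0.26 over the 16 alternatives, of which 14 kept the call. CLDN1, which rose under both, differed by 0.29 (interval -0.24 to 0.82).

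In TE6, where both knockdowns share siCont, siTP63 libraries were compared with siBRDT libraries directly. Higher with siTP63 were OCLN (1.36 ± 0.25, SE, adjusted p = 0.0011), CGN (1.17 ± 0.16, adjusted p = 1.1e-04), CLDN4 (1.06 ± 0.09, adjusted p = 3.9e-06) and F11R (0.83 ± 0.10, adjusted p = 5.9e-05), and lower was CLDN1 (-1.53 ± 0.19, adjusted p = 6.0e-05). These were 5 of 9, where 39.2% of 13333 genes differed (50.8% of them lower, or 39.0% with total rescaling, which moved the median by 0.11). CLDN7 (-0.07), TJP1 (0.03) and MARVELD2 (-0.12) did not pass, with intervals of -0.27 to 0.14, -0.23 to 0.30 and -0.74 to 0.51. CLDN12 was at -0.57 (adjusted p = 0.052). The siTP63 change thus lay above the siBRDT change in both lines for F11R, OCLN, CGN and CLDN4. In KYSE180 this compares changes from separate controls, not levels.

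CLDN4 was also expressed relative to CLDN7 in each library, a ratio that no scaling of libraries can change. The ratio was chosen after the values were seen and is given without a test. In KYSE180 it was 0.874 and 0.844 with siCont and 1.93 and 1.85 with siTP63, and in TE6 0.981 and 1.02 with siCont and 1.72 and 1.86 with siTP63. siTP63 libraries were thus above their controls in both lines. Under siBRDT the ratio was lower than in controls, at 0.596, 0.556 and 0.61 against 0.748, 0.782 and 0.829 in KYSE180 and 0.798 and 0.834 in TE6. In KYSE150 it was 5.31 and 4.98 with siCont and 3.85 and 3.87 with siTP63, and 6.91, 8.11 and 6.65 in control libraries and 5.88, 5.73 and 5.76 in BRDT-OE. There siTP63 libraries were below their controls, and replicates that differed widely in CLDN4 and in CLDN7 themselves had almost the same ratio. The longest CLDN4 and CLDN7 transcripts differ in length (4163 and 1923 bases) but little in GC content (57.5% and 59.6%). The part of length in the ratio was not tested.

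**Figure D5:**
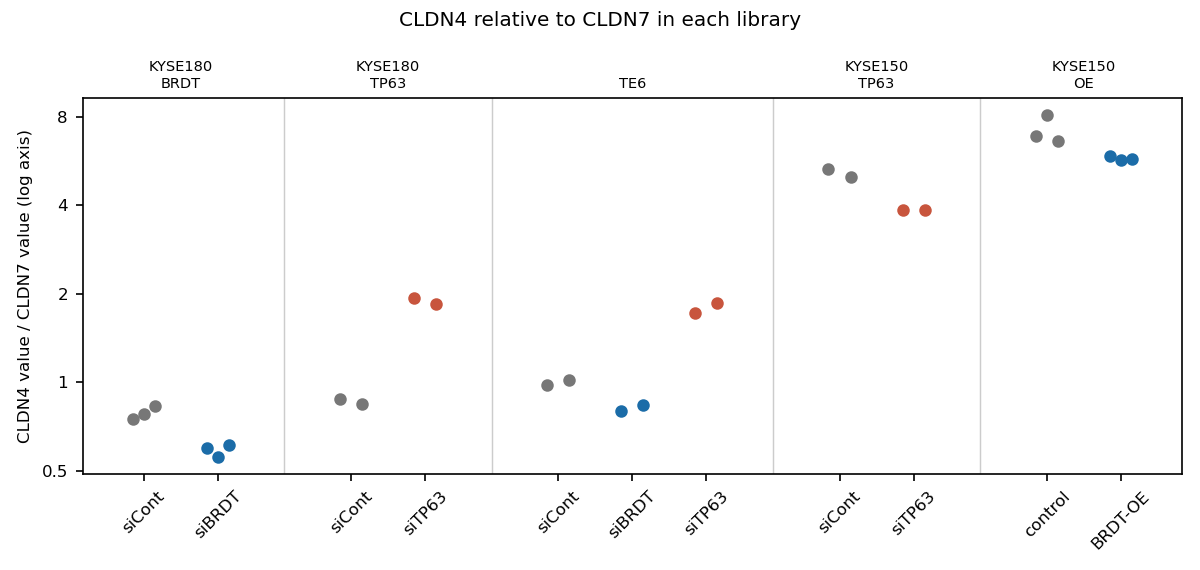
CLDN4 value divided by CLDN7 value in each library (log axis), 1 point per library, controls in grey, siBRDT and BRDT-OE in blue and siTP63 in red. siTP63 libraries lie between 1.72 and 1.93 in KYSE180 and TE6, above controls at 0.748 to 1.02, and at 3.85 and 3.87 in KYSE150, below controls at 4.98 and 5.31.

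Lastly, the members were compared with each other over all 26 libraries, on log2 values centred on the mean of each experiment. Among the 36 pairs OCLN and CGN were most alike (Pearson r = 0.82), followed by OCLN and TJP1 (0.69) and TJP1 and MARVELD2 (0.64), and CLDN7 and TJP1 were least alike (-0.64). Libraries of a group share their treatment and several groups share controls, so these values are descriptions. Of 10453 genes with a mean value of at least 100 the most alike were TOB2 (0.95), FNBP1 (0.94) and GRHL1 (0.93) for CGN, B3GNT9 (0.97) for OCLN, SERINC5 (0.94) for TJP1 and RFWD3 (0.93) for MARVELD2. For CLDN4 these were FGD3 (0.96), TMEM125 and SERTAD3 (0.94 each), for CLDN7 GAS5 (0.93), for CLDN12 PUM2 (0.93) and for F11R GALNT2 (0.95). CLDN1 had no close match, with ZNF670 at 0.71.

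Over the 6 comparisons CLDN1 was called up in 3 and down in 1 of the 4 in which it was tested, and CGN up in 3 and down in 1 of 6. F11R was called in the siBRDT comparisons only, down in both, and CLDN12 in both TE6 comparisons only, down in both. For siBRDT in TE6 the CLDN12 call held in 6 of 14 alternatives and the F11R call in 14 of 14. OCLN and MARVELD2, which lie next to each other, were called in the same direction in 1 comparison, siBRDT in TE6.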

How the data were processed

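mRNA-seq was performed on 26 libraries in 11 groups of 3 ESCC lines. Per the study's methods and the submitters' processing notes, reads were aligned to hg38 with STAR 2.6.0, counted per gene with HTSeq 0.11.2 and normalised with DESeq2 1.24.0. The annotation and the strand setting are not given in the sources used here. The deposited values are a signal, namely counts that the authors scaled by DESeq2 size factors, separately in each of 5 tables. All values were whole multiples of 1 read (100% whole at a tolerance of 0.001), which gave the reads per library (7.58 to 19.4 M). RPKM were computed from these reads and the longest GENCODE 44 transcript, which was found for 23161 of 26485 symbols (87.4%).

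Log2(value + 1) was fitted with limma 3.58.1 in R 4.3.3 (lmFit, eBayes with trend, two-sided), leaving out genes whose mean value in the fitted libraries was below 10. All 3 TE6 groups were in 1 fit. Genes were called at a Benjamini-Hochberg adjusted p under 0.05 with a log2 fold change of 0.5 or more either way, p-values being adjusted over all genes tested. Fold changes are on the log2(value + 1) scale and understate changes of low genes. Differences between fold changes were tested as limma contrasts, at an adjusted p under 0.05 without a fold limit. Errors are SD for values and SE for fold changes. Intervals cover 95%.

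Alternatives were a pseudocount of 0.1, no filter, rescaling to equal upper quartiles, length and GC trends removed per library (natural splines, 4 degrees of freedom), the replicate number as a block, leaving out each library, count tests of recovered reads by edgeR 4.0.16 and by DESeq2 1.42.0, calls without the fold limit, and TE6 fits of 2 groups. Rescaling to equal totals and a crossed pairing in KYSE150 were chosen after seeing the data. The fits were also run on simulated counts, with the same dispersion for all genes and no length, GC or scaling shift. The simulated spread was not matched to these libraries, so that run does not show how the fits behave on them. No pair of replicates agreed within sampling noise (chi-square per gene 1.84 to 64.1).

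Members and gene lists were chosen with earlier results of these data known. All 9 members are named in every comparison. Other tight junction genes are given as counts, with values for the 4 called genes of largest change per comparison whose mean value reached 100 and whose groups did not overlap. Genes within 1 Mb of TP63, neighbouring genes, regulators and markers are counted, with values where they stand beside a result. Genes most like a member are the 3 with the highest correlation, of which the report names 1 to 3. Protein sequences of the claudins were not analysed here.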

Additional observations from a re-analysis of the deposited data

Results flagged for a closer look

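The responses of 13 pairs of member and knockdown differed between TE6 and KYSE180 by the test of the difference itself (limma, adjusted p under 0.05). For siBRDT, TE6 minus KYSE180, these were MARVELD2 (-1.71), OCLN (-1.38), CGN (-1.11), TJP1 (-0.93) and CLDN12 (-0.66). For siTP63 they were CLDN1 (-1.92), TJP1 (-1.65), OCLN (-1.65), CLDN12 (-1.55), MARVELD2 (-1.14), CGN (-0.96), CLDN7 (1.12) and CLDN4 (0.82). All genes differed as often as 41.9% for siBRDT and 55% for siTP63. Each line was a separate experiment with its own controls, and the depth of knockdown differed as well. TP63 fell by 1.70 in KYSE180 and 4.45 in TE6 under siTP63, and by 0.58 and 1.15 under siBRDT. BRDT fell by 2.75 and 2.23 under siBRDT. Line, experiment and depth of knockdown thus cannot be told apart. No group held 4 or more libraries, so single libraries were not tested as outliers.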

How the results depend on the processing

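Counts of members stayed within 1.5 times the reported count in 71 fits with a library left out and in 87 under other alternatives, and moved further in 5 and 6. In TE6 the count for siBRDT went from 8 to 5 with the length and GC trend removed and was 4 to 7 with a library left out (4 without siCont replicate 1). The count for siTP63 in TE6 was 3 to 7 (3 without siCont replicate 2). For siTP63, KYSE150 minus KYSE180, it went from 0 to 2 with the trend removed and was 0 to 4 with a library left out (4 without KYSE150 siTP63 replicate 1). For KYSE150 minus TE6 it went from 0 to 1 with upper quartile rescaling, 1 with total rescaling and 1 with the trend removed, and was 0 to 4 (1 without KYSE150 siCont replicate 2, 4 without siTP63 replicate 2). The cause was not tested.

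Single values near 0 turned. With the trend removed CLDN4 was at -0.016 and OCLN at 0.017 for siBRDT in KYSE180, F11R at -0.081 for siTP63 in KYSE180, OCLN at 0.23 for siTP63 in TE6 and at -0.058 in BRDT-OE. MARVELD2 for siTP63 in KYSE180 was at 0.035 with upper quartiles, 0.030 with edgeR and 0.48 with total rescaling, which also put TJP1 at 0.0093 for siTP63 in KYSE150 and OCLN at -0.069 in BRDT-OE. For siBRDT, TE6 minus KYSE180, CLDN1 was at 0.0050 with upper quartiles and 0.019 with the trend removed, CLDN7 at -0.19 with the trend removed and -0.047 with total rescaling, and F11R at -0.16 with total rescaling. For siTP63, TE6 minus KYSE180, F11R was at -0.46 with total rescaling. For siTP63 minus siBRDT in TE6, CLDN7 was at 0.028 with the trend removed and 0.024 with total rescaling, and TJP1 at -0.064 with the trend removed.

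With a library left out, these ranges crossed 0: for siBRDT in KYSE180 CLDN4 -0.018 to 0.062 and CLDN12 -0.017 to 0.070, for siTP63 in KYSE180 CLDN12 -0.020 to 0.69 and MARVELD2 -0.29 to 0.22, for siTP63 in KYSE150 CLDN4 -0.090 to 0.42, CLDN12 -0.61 to 0.28, OCLN -0.34 to 1.13, TJP1 -0.38 to 0.19 and MARVELD2 -0.73 to 0.29, and for BRDT-OE OCLN -0.076 to 0.13. For siBRDT, TE6 minus KYSE180, they were CLDN1 -0.31 to 0.11 and F11R -0.081 to 0.13, for siTP63 minus siBRDT in KYSE180 CLDN12 -0.038 to 0.67, and in TE6 TJP1 -0.079 to 0.14 and MARVELD2 -0.59 to 0.35.

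Outside the TP63 experiment of KYSE150 the deviations of same-numbered libraries were weakly correlated (-0.08 to 0.18), so the numbers were not taken to pair the libraries. In BRDT-OE each library was still most like the control of its own number, at 0.015 to 0.098. In the TP63 experiment of KYSE150 the correlation was -0.70, each library deviating with the one of the other number. With the replicate block the counts of called members were 4 and 6 in KYSE180, 8 and 7 in TE6, 0 for siTP63 in KYSE150 and 2 for BRDT-OE, as without it, and 6 in place of 5 for siBRDT, TE6 minus KYSE180. With the crossed pairing in KYSE150, chosen after seeing the data, 1 member (CLDN7) and 3400 genes were called, against 0 and 0. The count over all genes there was also 45 with no filter, 137 with the block, 762 with the trend removed and 461 with DESeq2. In groups of 2 libraries, a lone library was assumed to vary like the others of the fit. Low depth limits CLDN1 in KYSE150 (0 to 5 reads) and OCLN and MARVELD2 under siBRDT in TE6 (30 to 54 reads).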

Other observations

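Genes within 1 Mb of TP63 other than CLDN1 were LPP, TPRG1, P3H2 and IL1RAP among those tested in KYSE180 and TE6. For siBRDT in KYSE180 0 of these 4 were called up and 3 down by limma (14.5% and 15.8% of all genes), and in TE6 0 and 2 (15.6% and 18.1%), while CLDN1 was called up in both. For siTP63 1 was called up and 1 down in KYSE180 (23.6% and 25.7% of all genes), where CLDN1 was called up, and 1 and 2 in TE6 (18.3% and 20.6%), where CLDN1 was called down. In KYSE150 0 of 3 tested were called by limma in either comparison. With so few genes these counts give no direction. CLDN3, 29272 bases from CLDN4, was called up in KYSE180 with siBRDT (0.85) and with siTP63 (1.48) and down in BRDT-OE (-0.98), and was too low to test in TE6.

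Of 11 polarity complex genes tested, 3 were called up and 0 down for siBRDT in KYSE180, 3 and 2 for siTP63 in KYSE180, 2 and 2 for siBRDT in TE6, 4 and 2 for siTP63 in TE6, 0 and 0 for siTP63 in KYSE150, and 0 and 2 in BRDT-OE (10.5% up and 16% down of all genes in the last). Of other MARVEL, angulin and JAM family genes 2 of 7 were called up and 0 down for siBRDT in KYSE180, 3 and 1 of 7 for siTP63 in KYSE180, 0 and 0 of 6 for siBRDT in TE6, 1 and 0 of 6 for siTP63 in TE6, 0 and 0 of 6 for siTP63 in KYSE150, and 2 and 0 of 5 in BRDT-OE. Of all genes 14.5% and 15.8% were called up and down for siBRDT in KYSE180 and 23.6% and 25.7% for siTP63. In TE6 15.6% and 18.1% were called for siBRDT and 18.3% and 20.6% for siTP63. At an unadjusted p under 0.05, 2 polarity genes and 2 of the other family passed for siTP63 in KYSE150, where 17.8% of all genes did. For siBRDT in TE6 1 of the other family passed, with no share of all genes given, so this count cannot be read as a trait of the family. These counts are from limma, and the lists were not counted with edgeR or DESeq2.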
